A study of Oryza sativa Indica Group with 24 samples.

Results

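The leaves of well-watered rice plants were compared between day 71 and day 59 after germination. The plants were of the cultivar Nagina 22 (N22, Indica Group), a landrace known for its tolerance of drought and heat, and grew in a field plot kept at 100% of field capacity, which is the water a soil holds after draining. Each array carried a control RNA in its first channel and, in its second channel with another Alexa dye, RNA of stressed leaves of the same age from a plot at 60% (mild), 40% (moderate) or 15% (severe) of field capacity. Only the control channel was used for the age comparison: 3 arrays of day 71 and 3 arrays of day 59, which are 6 of the 24 arrays of the series. The stress in the second channel had lasted 33 days on day 71 and 21 days on day 59, per the labels. Leaves were pooled within a plot, 1 plot was the control, and the 3 arrays of a day may hold the same control RNA. The p-values therefore measure the spread between arrays, which may be technical. The labels' protocol names day 71 among the days after flowering and of seed setting, and names no stage for day 59.

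A rice leaf is a source organ that makes sugars in its chloroplasts and exports them. Once the panicle has flowered, filling grains become the main sink, and older leaves pass into senescence, in which chlorophyll and photosynthetic proteins are broken down and their nitrogen is moved to the seed. Genes of photosynthesis are known to decline in ageing leaves, and genes of protein breakdown, nutrient transport and certain transcription factor families are known to rise. None of these genes could be looked up here, because the files do not pair the 7296 clones on the array with genes, and 0 of the 7296 clone names could be found among RefSeq's rice gene names. Clones are therefore called by their printed names, and the tissue label could not be checked against leaf markers.

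The signal itself differed between the days. In the control channel the median raw intensity of a clone spot was 1843, 1442 and 691 on the mild, moderate and severe arrays of day 71, against 5557, 4967 and 3443 on those of day 59. Clone spots that exceeded the 95th percentile of empty spots on their own array made up 46.0%, 53.7% and 49.5% of all clone spots on day 71, against 7.37%, 34.9% and 14.2% on day 59. All 3 arrays of day 71 thus lay above all 3 of day 59 (49.7% ± 3.88 and 18.8% ± 14.3, SD, n = 3 each, exact two-sided permutation p = 0.1, the smallest p that 3 arrays against 3 can give). The empty spots were also brighter on day 59: their median intensity was 302 ± 135 on day 71 and 2063 ± 1329 on day 59 (SD, n = 3 each, exact p = 0.1). All 816 empty spots lie in rows 11 and 12 of the 12 rows of print blocks. The shares above, and every later filter against empty spots, thus rest on 1 region of the array. Levels in that region also differed between arrays, as described below. The local background was listed as 0 at 42.3%, 95.1% and 99.9% of spots on day 71, against 8.81%, 19.7% and 43.4% on day 59. Both spots of a clone agreed closely within an array, with correlations from 0.95 to 0.99 on day 71 and from 0.96 to 0.97 on day 59. The scanner headers of days 59 and 71 give 1 date, with a spot diameter setting of 170 micrometres on day 71 and 160 on day 59. The day of the plants, the labelling and the hybridisation cannot be told apart.

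No clone in well-watered leaves passed the test between the days. Levels are log2 intensities after background correction and quantile normalization, which gives every array the same distribution, so that a difference is a change of a clone's level relative to all clones. Limma called 0 of 7296 clones at an adjusted p under 0.05 (0%), and the smallest adjusted p was 0.293. At an unadjusted p under 0.05 there were 858 clones (11.8%), of which 455 were higher and 403 lower on day 71. The values of the 3 arrays of day 71 lay wholly above those of day 59 for 852 clones and wholly below for 624, together 20.3% of the 7288 clones measured on all 6 arrays. Such separation has an exact permutation p of 0.1. Arrays that vary without regard to day would thus show it for a fraction of about 0.1 of clones on average. The same rate applies to the shares without overlap given below. A difference of 2-fold or more was reached by 878 clones in the higher and 957 in the lower direction, 25.2% of all. The median SE of a difference was 0.58 on the log2 scale, and the median half-width of its 95% confidence interval was 1.38, which is wider than the log2 value of 1 that a 2-fold difference has.

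**Figure D1:**
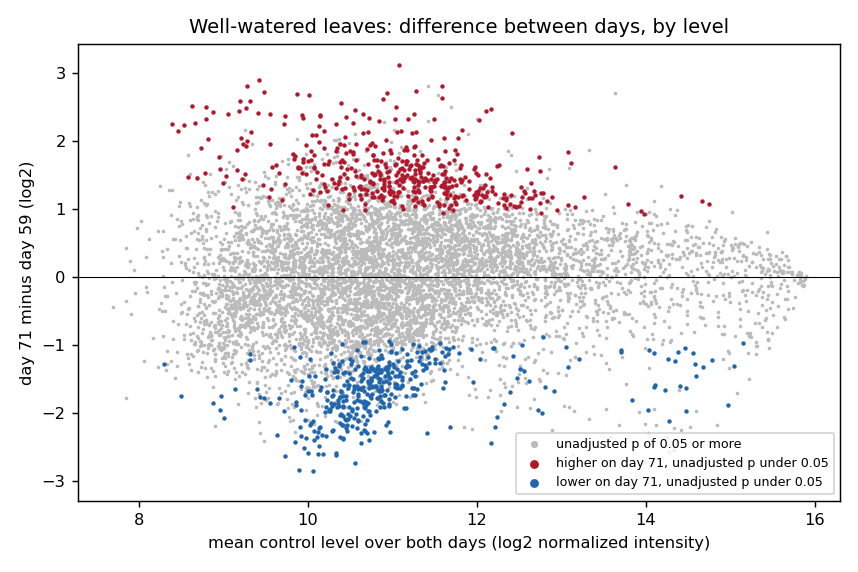
Each point is 1 of the 7296 clones, with its mean control level over both days on the x axis and its day 71 minus day 59 difference on the y axis, both on the log2 scale. The 455 red and 403 blue points passed an unadjusted p under 0.05, and none passed after adjustment.

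Clones of middle brightness made up most of the unadjusted calls. When the clones were ranked by mean control level and divided into 4 groups of 1824, the share with an unadjusted p under 0.05 was 6.69% in the dimmest, 17.8% in the next, 15.5% in the one after and 7.02% in the brightest group. In the second group 114 were higher and 211 lower on day 71, and in the third group 187 were higher and 96 lower. The brightest clones were measured most precisely, with a median SE of 0.45 against 0.79 in the dimmest group. Of the clones that exceeded the 95th percentile of the empty spots at both spots on all 6 arrays and had no saturated spot, 375 in number, 180 were higher and 195 lower on day 71, and their median difference was -0.05. Among them 1 was higher and 25 lower at an unadjusted p under 0.05 (6.93%). In this bright group 1 clone was higher and 37 lower by 2-fold or more. The filter was stricter on day 59, when 18.8% of clone spots exceeded the empty spots on average, against 49.7% on day 71. It may thus have kept clones that were high on day 59, which would favour lower values on day 71. Which day decided that a clone was kept was not tested. The balance of directions in this group is therefore not read as a result. The balance depended on how arrays were scaled: with arrays only set to equal medians, 361 of the 375 were higher and 14 lower, 232 higher and 0 lower at an unadjusted p under 0.05, with a median difference of 1.50. Under that scaling the median difference of all clones was 0.34, against 0.03 after quantile normalization. Of the 100 brightest clones of each day's mean, 51 were shared, and of the 500 brightest 399 were shared. Between single arrays, 57.3 of the 100 brightest were shared on average by arrays of different days (46 to 72, 9 pairs) and 64.7 by arrays of the same day (43 to 79, 6 pairs).

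Since no clone passed, 4 bright clones whose days did not overlap were named after their values were seen, as examples with the largest differences. The brightness filter, stricter on day 59, also acted on this choice and may favour clones that were high on day 59. MK_PG5_C12 had control levels of 15.39, 15.37 and 15.09 on the mild, moderate and severe arrays of day 71, against 14.27, 13.98 and 14.38 on those of day 59. All arrays of day 71 lay above those of day 59, and the difference was 1.07 ± 0.38 (SE) on the log2 scale, with an adjusted p of 0.355 in limma. MK_PG5_E07 had 15.71, 14.79 and 14.99 on day 71, against 14.50, 14.27 and 14.25 on day 59. Its difference was 0.82 ± 0.42 (SE, limma adjusted p = 0.518), and its mild array of day 71 stood apart from the other two. Both clones belong to print row 11, a region described below, and with each print block centred on its median their differences were 0.64 and -0.13, so that the direction of MK_PG5_E07 flipped.

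The 2 clones at the lower end had more spread on day 71 than on day 59. NL14_E02 had control levels of 13.10, 12.26 and 14.29 on the mild, moderate and severe arrays of day 71, against 15.36, 15.54 and 15.07 on day 59. The difference was -2.11 ± 0.58 (SE, limma adjusted p = 0.304). NL12_C02 had 13.48, 12.16 and 14.82 on day 71, against 15.55, 15.59 and 15.25 on day 59, a difference of -1.97 ± 0.69 (SE, limma adjusted p = 0.349). In both clones the moderate array of day 71 was the lowest of the 6 and the severe array the closest to day 59. With arrays only set to equal medians, NL14_E02 stood at -0.57 and NL12_C02 at -0.36, while MK_PG5_C12 and MK_PG5_E07 stood at 2.63 and 2.34 (limma adjusted p = 0.0771 for both).

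The same 4 clones were followed through all 7 days with scanner data. In control leaves, through days 45, 52, 55, 59, 63, 67 and 71, NL14_E02 averaged 12.58, 14.93, 13.70, 15.46, 15.36, 14.97 and 13.32. NL12_C02 averaged 10.87, 15.57, 13.10, 15.61, 14.82, 14.99 and 13.59 through the same days. Both clones were thus low on days 45, 55 and 71 and high on the other 4 days, and in neither did the level run in one direction with age. MK_PG5_C12 averaged 15.64, 14.20, 15.31, 14.33, 14.58, 14.43 and 15.41 on these days, and was high on the same days on which those clones were low. MK_PG5_E07 averaged 16.10 on day 45 and between 14.46 and 15.38 on the later days, with an SD of 1.24 on day 55 and 0.14 on day 59. In the stress channel of the day 71 arrays, MK_PG5_C12 stood at 10.20, 13.29 and 9.99 on the mild, moderate and severe arrays. On day 59 it stood at 13.22, 13.19 and 13.56. Its stress level was below its control level on each array of both days. The log2 ratios of stress over control were -5.19, -2.08 and -5.09 on day 71, against -1.05, -0.79 and -0.82 on day 59. Each channel was normalized on its own, so the sign of a ratio also depends on the scale of the channels.

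**Figure D2:**
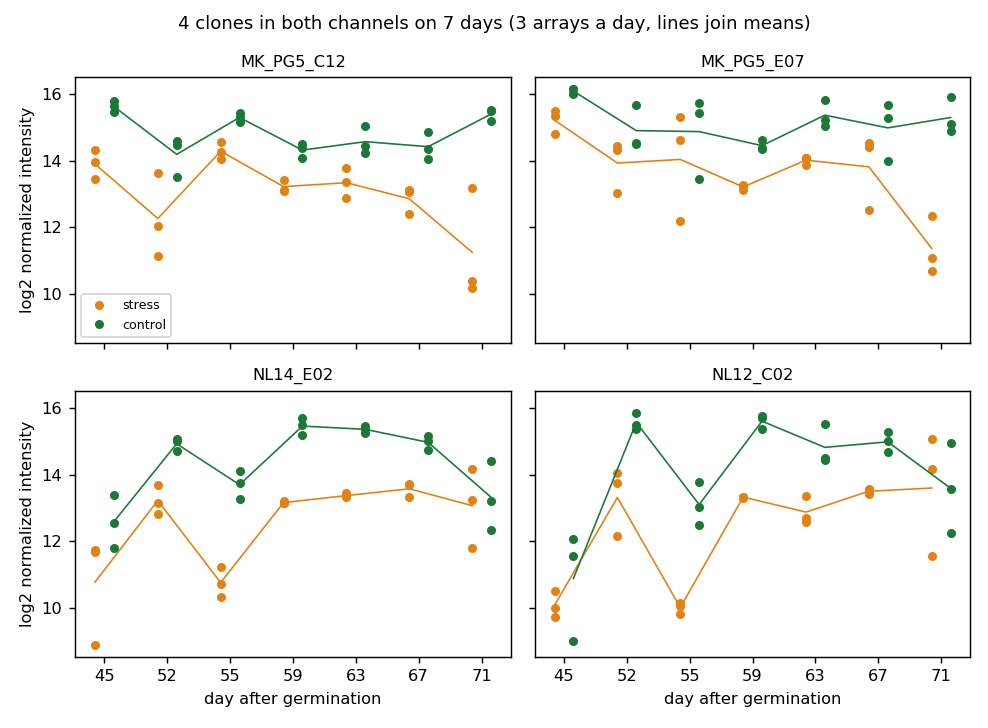
Log2 normalized intensity of 4 clones on the y axis against day after germination on the x axis, with stressed leaves in orange and control leaves in green. Points are the 3 arrays of a day and lines join their means. NL14_E02 and NL12_C02 are low in control leaves on days 45, 55 and 71, and MK_PG5_C12 is high on those days.

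The control channels of a day resembled each other little more than those of different days. Over all clones, the correlation of log2 levels between control channels averaged 0.73 for the 3 pairs within day 71 (0.69 to 0.80) and 0.66 for the 3 pairs within day 59 (0.59 to 0.70), and 0.67 for the 9 pairs of day 71 with day 59 (0.59 to 0.74). In contrast, the channels of 1 array, which hold different RNA, correlated at 0.88 on average (0.71 to 0.96, 6 arrays). Each point of these correlations is a clone printed on the same arrays, so they describe the arrays and carry no p-value. A clone's deviation from its day mean in the control channel correlated with its deviation in the stress channel of the same array at 0.82, 0.81 and 0.72 on the mild, moderate and severe arrays of day 71 and at 0.90, 0.92 and 0.90 on those of day 59. No pair of control channels of a day held identical values. The median absolute difference between control arrays of a day was 0.57 on day 71 and 0.79 on day 59, on the log2 scale. The SD of a clone over the 3 arrays had a median of 0.52 on day 71 and 0.72 on day 59. Of the variance around the clone means over the 6 control arrays, 23.9% lay between the days, and the means of the 48 print blocks on each array accounted for 48.9%. With 3 arrays a day, arrays that vary at random also put a share of this variance between the days. The 23.9% is therefore not the share due to the day.

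**Figure D3:**
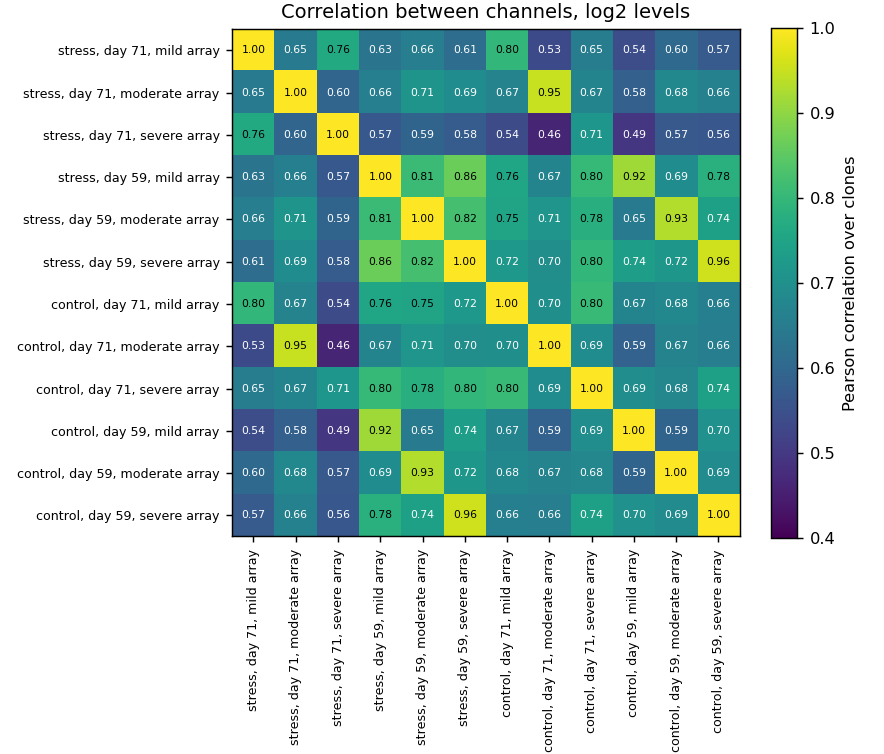
Pearson correlation of log2 levels over the clones between the 12 channels of the 6 arrays, with stressed leaves before control leaves and day 71 before day 59 on both axes. The channels of 1 array reach up to 0.96, and control channels of the same day are hardly brighter in colour than those of different days.

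Print position moved with the differences between days. The array has 12 rows of print blocks, and the clones fall into 3 sets by name: 4608 NL clones, 1536 clones of the set written NL_ and 1152 MK clones. All 816 clones of print rows 11 and 12 were MK clones, so set and position overlap there. In row 11 the median control level, taken relative to the array median, was -0.29 ± 0.23 on day 71 and -1.002 ± 0.48 on day 59 (SD, n = 3 each), a difference of 0.71 with an exact permutation p of 0.2. The MK set as a whole differed by 0.33 (exact p = 0.5), with 3 values between -0.75 and -0.63 on day 71 against 3 between -1.66 and -0.31 on day 59, which overlap. The NL set differed by -0.02, or by 0.02 with arrays set to equal medians, and the NL_ set by 0.03. Of the 816 clones in rows 11 and 12, 155 were higher and 2 lower on day 71 at an unadjusted p under 0.05, where 455 and 403 were counted over all rows. In row 3 there were 65 higher and 1 lower of 648, and in row 5 there were 15 higher and 83 lower. With arrays set to equal medians the counts were 193 higher and 3 lower in rows 11 and 12, 134 and 0 in row 3, and 105 and 84 in row 5, and with each print block centred they were 59 and 45, 18 and 56, and 56 and 91. Single arrays stood apart in single rows: the mild array of day 71 lay at -1.23 in row 1, the moderate array of day 71 at -1.30 in rows 2 and 3, and the moderate array of day 59 at -2.15 in row 12. The part of position in the differences between days was not tested beyond centring each print block, after which limma called 0 clones over the 6 arrays, with 1264 at an unadjusted p under 0.05, and 1 higher and 1 lower in the fit over 21 arrays described below.

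**Figure D4:**
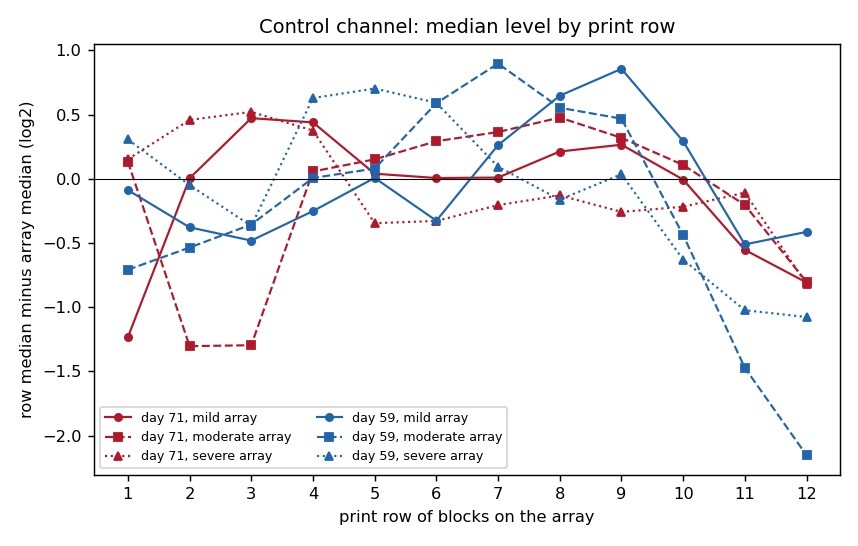
Median log2 control level of the clones in each of the 12 print rows, minus the median of the array, for the 3 arrays of day 71 in red and the 3 of day 59 in blue. Arrays of 1 day cross each other and those of the other day, and the moderate arrays drop to -1.30 in rows 2 and 3 on day 71 and to -2.15 in row 12 on day 59.

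The control spots printed beside the clones also differed between the days. There are 24 named controls (Lambda and several YIR series), and whether RNA for them was added to the samples is not stated in the labels. In the control channel 23 of the 24 were lower on day 71 than on day 59, with a median difference of -0.87 (-1.45 to 0.67), and the values of the days did not overlap for 2 of them. CONT_rYIR03 averaged 13.23 ± 0.28 on day 71 and 14.63 ± 0.63 on day 59 (SD, n = 3 each, exact p = 0.1). CONT_rYIR07 averaged 13.76 ± 0.40 on day 71 and 15.04 ± 0.74 on day 59 (exact p = 0.1). The control spot with the highest level, CONT_cYIR01, differed by -0.26, and its arrays overlapped. In the stress channel of the same arrays 11 controls were higher and 13 lower on day 71, with a median difference of -0.05. With arrays set to equal medians, 10 controls were higher and 14 lower on day 71 in the control channel, the median difference was -0.11, and CONT_rYIR03 and CONT_rYIR07 stood at -0.09 and 0.12, the second with its direction turned. The part of this shift in the differences between clones was not tested.

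Day 71 was also set against the other days in well-watered leaves. In 1 fit over the control channel of 21 arrays on 7 days, no clone passed limma's test between day 71 and any of the other 6 days (0%). At an unadjusted p under 0.05 there were 580 clones between day 71 and day 45 (7.95%), 1036 with day 52 (14.2%), 1100 with day 55 (15.1%), 743 with day 59 (10.2%), 522 with day 63 (7.15%) and 336 with day 67 (4.61%). The absence of calls for day 71 depended on the settings. With each print block centred, 10 clones were higher and 17 lower on day 71 than on day 45, and 2 clones each were called against days 59, 63 and 67. Without the moderate array of day 71, 46 clones were higher and 2 lower than on day 45. Leaving out single arrays of day 59, which alters the shared normalization and spread, gave 2 calls against day 45 without the mild array, and 2 and 3 against day 52 without the moderate and severe arrays. More clones passed with day 59: 81 clones were higher and 103 lower on day 59 than on day 45 (2.52%), and 17.1% had an unadjusted p under 0.05. Against day 52, 1 was higher and 4 lower on day 59 (0.0685%, and 11.6% unadjusted), and against day 55, 11 were higher and 4 lower (0.206%, and 15.3% unadjusted). Against day 67, 3 were lower on day 59 (0.0411%, and 12.1% unadjusted), and against day 63 none passed, while 501 clones (6.87%) had an unadjusted p under 0.05. These contrasts share their arrays of days 59 and 71, so they are not independent. The day 45 contrast rested partly on single arrays: 49 clones were called without the mild array of day 45, whose intensities are on a far higher scale than on other arrays, 60 without the mild, 122 without the moderate and 71 without the severe array of day 59. The 15 calls against day 55 were 2 without the mild, 11 without the moderate and 0 without the severe array of day 59 (905 unadjusted), 33 without the moderate and 6 without the severe array of day 71, 9 without the mild array of day 45, and 57 with print blocks centred. The 5 against day 52 were 1 without the mild and 0 without the severe array of day 59 (743 unadjusted), and 0 with print blocks centred (767 unadjusted). The 3 against day 67 were 8 without the moderate and 2 without the severe array of day 59, 1 without its mild array, without any single array of day 71 or without the mild array of day 45, and 20 with print blocks centred. Against day 63 there were 2 without the moderate array of day 59. Over all 7 days, the control channels of the same day correlated at 0.69 on average (0.47 to 0.81, 21 pairs) and those of different days at 0.64 (0.32 to 0.81, 189 pairs).

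**Figure D5:**
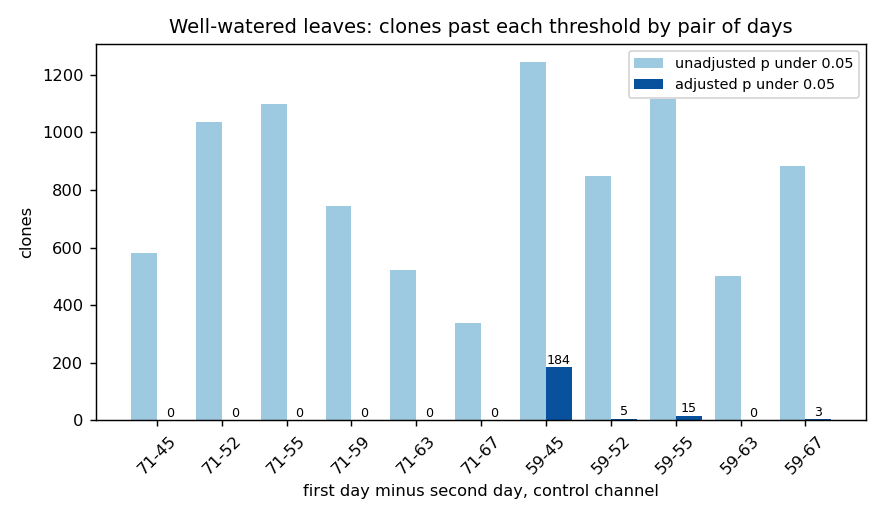
Number of clones past an unadjusted p under 0.05 (light bars) and past an adjusted p under 0.05 (dark bars, counts printed above) in control leaves, on the y axis, for 11 pairs of days on the x axis. All 6 contrasts of day 71 have 0 adjusted calls, and the contrast of day 59 with day 45 has 184.

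The stressed leaves of the same arrays were compared between the same days as a yardstick. There the 3 arrays of a day hold leaves of 3 stress levels, which were fitted as replicates with the day alone. The spread between them thus includes differences between levels. Day 71 also meant 33 days of stress against 21 on day 59, so age and duration cannot be told apart in these leaves. In stressed leaves limma called 85 clones higher and 183 lower on day 71 than on day 59 (3.67%), with median differences of 2.23 and -3.20, against 0 in control leaves. At an unadjusted p under 0.05 there were 1323 clones (18.1%) in stressed leaves. A 2-fold difference was reached by 25.8% of clones in stressed leaves, close to the 25.2% of control leaves, and the days did not overlap for 25.1% in stressed and 20.3% in control leaves. NL15_D03 stood in stressed leaves at 10.43, 10.41 and 11.51 on the mild, moderate and severe arrays of day 71, against 15.02, 15.14 and 15.47 on those of day 59, a difference of -4.43 (limma adjusted p = 0.00773). In control leaves it stood at 14.46, 12.67 and 15.82 on day 71, against 15.65, 15.58 and 15.72 on day 59, and the severe array of day 71 lay above all of day 59. NL20_H12 fell by 3.86 in stressed leaves (limma adjusted p = 0.00896), while its control levels overlapped between days. NL7_E08 rose by 3.07 (limma adjusted p = 0.0146) and NL21_F10 by 2.86 (limma adjusted p = 0.012) in stressed leaves, and in control leaves both overlapped between days. For the 85 clones called higher on day 71 in stressed leaves, the median difference between days in control leaves was 0.26. For the 183 called lower it was -0.11, against 0.03 over all clones. No clone was called in stressed leaves when any of the 3 arrays of day 59 was left out (949, 1283 and 920 at an unadjusted p under 0.05 without the mild, moderate or severe one), nor with the stress level as a replicate block (1279 unadjusted). Without the mild, moderate or severe array of day 71 the calls were 116, 748 and 46. With arrays only set to equal medians they were 32 higher and 184 lower. The median difference of all clones in stressed leaves was 0.07.

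Whether the change between days differed between stressed and control leaves was tested on the ratio of stress over control within each array. On day 71 the stress had also lasted longer (33 days against 21), so age and duration of stress cannot be told apart. The raw signal moved in opposite directions in the stress and control channels. Median clone intensity averaged 2647 on day 71 and 1006 on day 59 in the stress channel, against 1325 and 4656 in the control channel. The part of this shift in the ratios was not tested. The change of this log2 ratio was positive for 460 clones and negative for 714 on day 71 relative to day 59 (16.1%, and 32.2% unadjusted), with medians of 1.47 and -2.28, against a median of 0.22 over all clones. The days did not overlap for 40.5% of clones, and 24.8% differed by 2-fold or more in either direction. The median SE was 0.37 for the ratio, 0.54 for stressed and 0.58 for control leaves, and 57.6%, 37.7% and 23.9% of the variance around clone means lay between the days. Each of these shares includes what random variation of arrays puts between the days. For the 714 clones with a negative change the median difference between days was -1.53 in stressed and 0.67 in control leaves, and for the 460 with a positive change it was 1.16 in stressed and -0.49 in control leaves. The ratio contains the control level with a negative sign, so these paired medians are not independent of the choice of clones. NL34_F12 had log2 ratios of -4.23, -2.47 and -4.88 on the mild, moderate and severe arrays of day 71, against -0.51, -0.44 and -0.65 on day 59, a change of -3.33 (limma adjusted p = 0.0093). Its control levels were 15.58, 15.05 and 15.90 on day 71, against 15.83, 15.79 and 15.87 on day 59, which overlap. NL46_B06 changed by -3.14 (limma adjusted p = 0.00787), with control levels of 15.17, 15.13 and 15.63 on day 71, against 15.53, 15.78 and 15.74 on day 59, which overlap too. NL36_A08 changed by 2.96 (limma adjusted p = 0.0067) and NL29_G10 by 2.88 (limma adjusted p = 0.00631). In both, stressed levels were higher and control levels lower on day 71, with no overlap between days in either channel. NL36_A08 stood in stressed leaves at 14.80, 13.93 and 15.53 on day 71, against 13.14, 13.18 and 13.41 on day 59 (limma adjusted p = 0.152). In control leaves it stood at 13.60, 13.75 and 14.25 on day 71, against 15.18, 15.56 and 15.21 on day 59 (limma adjusted p = 0.304). The changes of NL36_A08 and NL29_G10 were 0.83 and 0.74 when arrays were only set to equal medians, and 0.05 and 0.02 in the authors' value table, and neither passed there. With equal medians the calls over all clones were 80 positive and 1067 negative, and with loess within arrays 155 positive and 806 negative. Without the mild, moderate or severe array the calls were 568, 1370 and 669 for day 71, and 569, 433 and 408 for day 59.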

How the data were processed

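The deposited scanner files hold, per spot, the raw intensity and local background of both channels on a linear intensity scale, per the file headers, as QuantArray wrote them. The headers of the authors' files also mention background subtraction; the intensities used here still contain it. The authors' deposited value table holds log2 ratios per spot, whose normalization no label or header names, and served as an alternative over print rows 1 to 10 (6474 clones). Its day 71 minus day 59 differences correlated with loess log2 ratios from the scanner files at 0.88, 0.69 and 0.76 on mild, moderate and severe arrays, which sets its direction as stress over control; its column medians were 0.09, 0.01 and 0.02 on day 71 and -0.18, -0.08 and -0.09 on day 59, and its centring stays unknown. In each channel the background was corrected with normexp (offset 50), clone spots were quantile normalized over the 6 arrays (over all 21 for the days together), spots marked as ignored were left out (8 clones lacked an array's value and were fitted on the rest), and duplicate spots were averaged. Tests used limma 3.58.1 in R 4.3.3 with Benjamini-Hochberg adjustment at 0.05, tested on simulated data; single values had exact permutation tests. Figures used Python 3.11.15 and matplotlib 3.10.9. The number of arrays limits the precision.

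The members and lists were chosen with earlier results of these data known. Named clones are the 2 highest and 2 lowest past the threshold with days that do not overlap, both spots above the 95th percentile of empty spots on all 6 arrays and none at 65000 or more; for control leaves none passed, and the threshold was dropped. Arrays of the same stress level on both days deviated together weakly in the control channel (correlations 0.10, 0.11 and 0.13), so the level was tried as a replicate block; in control leaves it changed no call. The alternatives are given in the closing section.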

Additional observations from a re-analysis of the deposited data

Results flagged for a closer look

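The change between day 59 and day 71 was tested for a difference between stressed and control leaves. It differed for 1174 clones at an adjusted p under 0.05 in limma. From day 59 to day 71 the log2 ratio of stress over control rose for 460 of them and fell for 714. This does not give the sign of the ratio on day 71. With arrays only set to equal medians, 80 clones were called with a positive and 1067 with a negative change. The clones chosen by the naming rule were NL36_A08 (2.96), NL29_G10 (2.88), NL34_F12 (-3.33) and NL46_B06 (-3.14), as changes of the log2 ratio.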

How the results depend on the processing

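In control leaves the count of called clones between days 71 and 59 was 0 under each alternative run, except that print blocks centred in the fit over 21 arrays gave 2, with unadjusted counts over all alternatives of the 6-array fit from 378 (test against a fold of 1.5) to 1801 (arrays set to equal medians, smallest adjusted p 0.0771) and 506 to 1088 when 1 array was left out. With the stress level as a replicate block the control count stayed 0, the ratio count was 1192, and the stress count of 268 became 0 (smallest adjusted p 0.052). The other stress counts that moved were 506 without background correction, 523 with plain subtraction, 509 with print blocks centred, 497 over clones above the empty spots, 597 with array weights and 79 against a fold of 1.5. When 1 array was left out, the stress count ranged from 0 to 748 and the ratio count from 408 to 1370; without the moderate array of day 71 they were 748 and 1370. The ratio count was 416 against a fold of 1.5, and 846 to 1367 under the other planned settings. The 197 clones called in at least 1 of 11 pairs of days became 335 with print blocks centred, 4 against a fold of 1.5, and 59 to 249 when 1 array was left out. Detection differed in the same direction at the 99th percentile (9.16% and 4.82%, exact p = 0.2), and when 1 array was left out. The set medians moved by less than the spread between arrays. Settings added after seeing the data: with both channels in 1 fit (intraspot correlation 0.80) control, stress and ratio gave 0, 146 and 1451; with print blocks centred and the replicate block together 0, 518 and 1225; in print rows 1 to 10 alone 0, 312 and 1023. The causes were not tested. Over clones above the empty spots the control count was also 0 (smallest adjusted p 0.11). A clone entered this set when it passed on a fraction 0.5 or more of its arrays, so the arrays of 1 day could suffice. In control leaves 2766 clones entered, with a median difference of 0.29, against 0.03 over all clones. In stressed leaves the medians were 0.23 and 0.07. The set thus leaned towards clones high on day 71, and its counts, including the 497, are not read as a check.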
